A study of Mus musculus with 15 samples.

Results

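The genes described here are the cyclins, the cyclin-dependent kinases (Cdk), their inhibitors (Cdkn), the Cdc genes, the E2f factors with Rb1, and the kinases Wee1, Aurka, Aurkb and Plk1, as they appear among Ago2 and Sfpq binding sites of P19 cells. They were chosen by gene symbol alone, and a gene entered if any peak was annotated to it. This took 71 of the 10668 genes with a peak and 405 of the 75980 peaks of the 5 full lists. By family these were 14 cyclins, 13 cyclin-dependent kinases, 4 inhibitors, 7 E2f factors and Rb1, 3 of the named mitotic kinases and 13 Cdc genes. The other 17 match only by name. They include Cdc42, a GTPase of the cytoskeleton, its binding partners, and Cdc37 and Cdc37l1, which are chaperone partners. They were kept and are counted apart.

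P19 is a mouse embryonal carcinoma line, and HITS-CLIP crosslinks a protein to RNA with UV light, recovers it with an antibody and sequences the bound fragments. The 15 libraries formed 5 groups of 3 replicates, all from unsorted transfected P19 cells: Ago2 CLIP with siSfpq and let-7a mimic, Ago2 CLIP with let-7a mimic, Ago2 CLIP with siSfpq, Sfpq CLIP with siSfpq and Sfpq CLIP in control cells. The study's methods pair each mimic with a control siRNA and each siRNA with a control mimic where only 1 of them was active. The libraries of Ago2 in control cells are not among these 15 and were not analysed here. Ago2 in control cells enters only through the authors' peak lists. For the Ago2 peaks of endogenous miRNAs in P19 cells, the study's methods cite an earlier publication. The deposited values are 11 peak lists made from merged replicates, so they hold 0 values per sample and no replicate error can be given. No test between conditions was therefore possible. Shares have 95% Wilson intervals, which cover counting error only, and peaks of 1 gene are not independent of each other.

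The 5 full lists differ in kind. The Ago2-let-7a list (4202 peaks) holds sites stronger with the let-7a mimic than in control cells. The recruited let-7a list (10264 peaks) holds sites stronger with siSfpq and let-7a together than with let-7a alone. The Sfpq list (29715 peaks) comes from Sfpq CLIP of siSfpq cells compared with control cells. Each peak of these lists has a dCLIP score, a measure of the difference between the conditions. The other pair of lists gives reads per peak without a comparison of conditions: the siSfpq Ago2 list (29734 peaks, named by its authors as recruited endogenous peaks) and the control Ago2 list (2065 peaks). The siSfpq Ago2 list is named here after the study's methods, which describe siSfpq cells alone, but by its header it may hold control cells as well. A peak of the siSfpq Ago2 list need not be gained, because this list compares no conditions and is far longer than the control list. Ago2-let-7a and control Ago2 peaks that fell with siSfpq by their authors' lists are called dismissed here. They come in 3 classes by distance to Sfpq: close means under 500 nt, far means up to 7000 nt and very far means beyond it. All other peaks of those lists are called kept, which does not mean unchanged. Positions are those of mm10.

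Cyclins are the regulatory subunits that switch on cyclin-dependent kinases at set points of the cell cycle. D- and E-type cyclins with Cdk4, Cdk6 and Cdk2 drive cells out of G1 by phosphorylating Rb1, which frees E2f factors, and A- and B-type cyclins with Cdk1 drive S phase and mitosis. Inhibitors such as p21 (Cdkn1a) and p27 (Cdkn1b) oppose them, Wee1 holds Cdk1 inactive and Cdc25 phosphatases release it. In mouse embryonic stem cells the miR-290 and miR-302 families are known to repress the inhibitors of the G1 to S transition, Cdkn1a among them, whereas let-7 is a family of differentiation and is known to repress G1 drivers such as Cdk6, Ccnd2 and Cdc25a. A miRNA finds its target mostly by pairing through its seed, bases 2 to 8.

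The miRNAs searched for are given here so that the sites below can be read against them. They are from RefSeq (GRCm38.p6), 5′ to 3′, with the seed in capitals. The miR-294 and miR-302b seeds are the same, and that of miR-17 is the same word moved by 1 base. The miR-221 and miR-222 seed, which is shared and known for Cdkn1b, was added after the data were seen.
let-7a-5p: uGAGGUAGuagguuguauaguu
miR-294-3p: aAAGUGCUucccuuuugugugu
miR-302b-3p: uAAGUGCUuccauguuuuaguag
miR-17-5p: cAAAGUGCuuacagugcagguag
miR-16-5p: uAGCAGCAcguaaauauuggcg
miR-34a-5p: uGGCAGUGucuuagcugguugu
miR-221-3p: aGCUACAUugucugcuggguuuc
miR-222-3p: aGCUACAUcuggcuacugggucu

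The number of member genes in a list largely followed the length of the list. The recruited let-7a list held 83 peaks of 27 member genes, the Ago2-let-7a list 23 peaks of 11, the siSfpq Ago2 list 130 peaks of 57, the control Ago2 list 16 peaks of 10 and the Sfpq list 153 peaks of 38. As shares of the 71 genes these were 38%, 15.5%, 80.3%, 14.1% and 53.5%, against 29.8%, 23%, 82.7%, 9.83% and 46.4% of the 10668 genes in the same order of lists, and each member interval held the share over all genes. Ccng2 (cyclin G2, an unusual cyclin tied to cell cycle arrest), Cdkn1b, Cdk8 and the name-only Cdc37l1 were the members present in all 5 lists. The 13 Cdc genes had 14 Sfpq peaks, 4 recruited let-7a peaks and 17 siSfpq Ago2 peaks. They had 0 peaks in the Ago2-let-7a and control Ago2 lists, which hold 23% and 9.83% of all genes. With 13 genes no difference can be read from this. The median value of member peaks was close to that of all peaks of each list: a score of 14 against 14 for recruited let-7a, 13 against 10 for Ago2-let-7a and 9 against 11 for Sfpq, and 26 against 22 reads for siSfpq Ago2 and 14 against 12 reads for control Ago2.

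**Figure D1:**
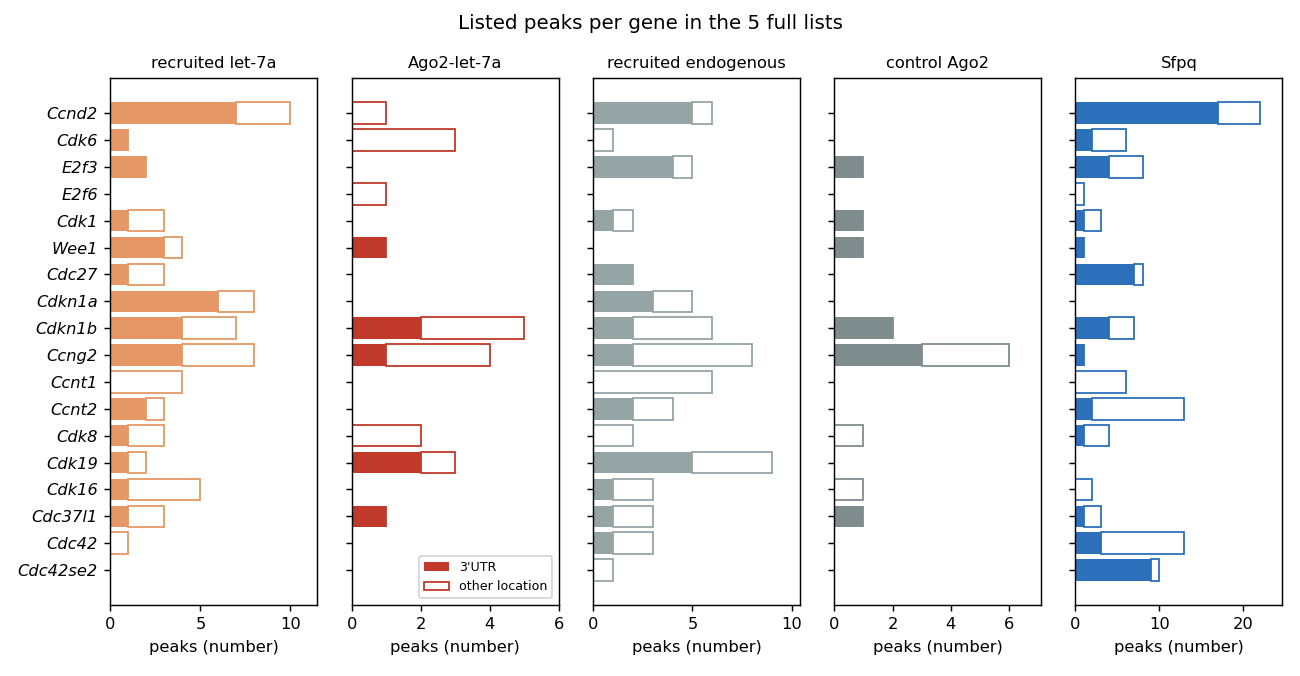
Number of listed peaks (x axis) of 18 member genes (y axis) in each of the 5 full lists, with peaks in 3′UTRs filled and other locations open. Ccnd2 had the longest Sfpq bar, with 22 peaks, and 0 peaks in the control Ago2 list, while Cdkn1a had bars in the recruited let-7a and recruited endogenous (siSfpq Ago2) panels alone.

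Member peaks lay in 3′UTRs in 36 of 83 cases in the recruited let-7a list (43.4%, 33.2 to 54.1), 7 of 23 in the Ago2-let-7a list (30.4%, 15.6 to 50.9), 46 of 130 in the siSfpq Ago2 list (35.4%, 27.7 to 43.9), 9 of 16 in the control Ago2 list (56.2%, 33.2 to 76.9) and 67 of 153 in the Sfpq list (43.8%, 36.2 to 51.7). Since members are found by symbol and intergenic peaks have none, the fitting background is all peaks with a gene symbol. Among these the 3′UTR share was 41.6%, 26.8%, 18.9%, 25.7% and 31.1% in the same order of lists. By peaks, the member intervals held the background share in both let-7a lists and lay above it in the siSfpq Ago2, control Ago2 and Sfpq lists. With each gene counted once per location, in members and background alike, the Sfpq share was 30.3% (20.6 to 42.2) against 26%, an interval that holds the background. Ccnd2 alone had 17 of the 67 Sfpq 3′UTR peaks, Cdc42se2 9 and Cdc27 7. Counted in that way the siSfpq Ago2 share was 30.4% (22.0 to 40.5) against 18.1%, and the control Ago2 share 50% (25.4 to 74.6) against 21.9%. With 3′UTRs set by position the control Ago2 share of members was 43.8% (23.1 to 66.8), an interval that holds the 25.7% by deposited location, and the background by position was not computed.

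**Figure D2:**
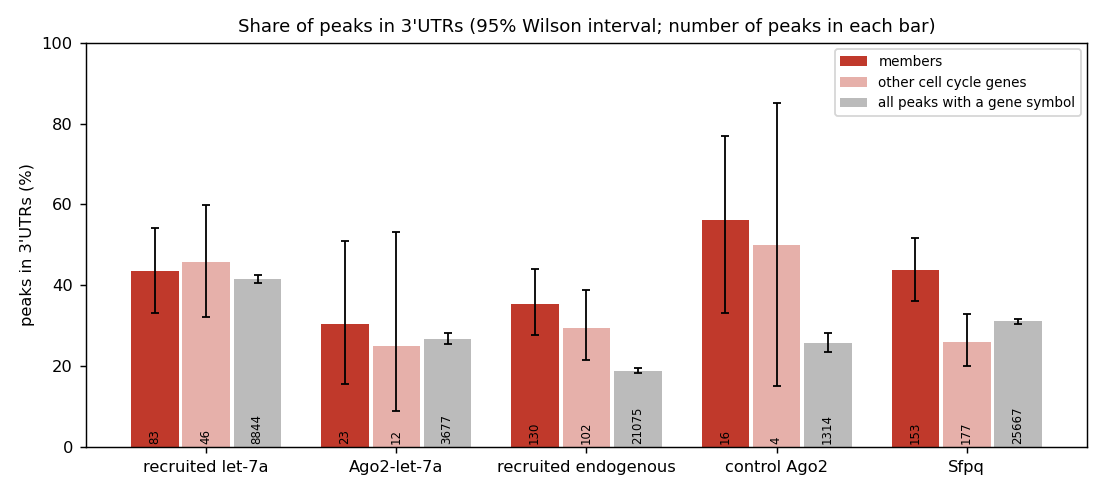
Share of peaks in 3′UTRs (y axis, percent, from 0) in each of the 5 lists for members, for other cell cycle genes outside the naming rule and for all peaks with a gene symbol. Error bars are 95% Wilson intervals and the number in each bar is its number of peaks. The member interval lies above the grey bar in the recruited endogenous (siSfpq Ago2), control Ago2 and Sfpq lists.

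The question of the central comparison was whether Ago2 sites were lost with siSfpq. Of the 23 Ago2-let-7a peaks on members, 16 were dismissed (69.6%, 49.1 to 84.4), against 80.2% of the whole list and 81.8% of its peaks with a gene symbol. The close class held 3 of the 23 (13.0%, 4.54 to 32.1), against 27.0% of the whole list. The far class held 9 (39.1%, 22.2 to 59.2), against 33.6%, and the very far class 4 (17.4%, 6.98 to 37.1), against 19.6%. Cyclins lost 4 of 5 peaks, cyclin-dependent kinases 5 of 8, inhibitors 3 of 5, E2f6 and Rb1 all 2, Wee1 0 of 1 and the name-only matches 2 of 2. In 3′UTRs the members lost 3 of 7 (42.9%, 15.8 to 75.0), against 72.0% of all 3′UTR peaks of the list. With so few peaks these intervals hold the background shares, and no difference was detectable in these shares. By the deposited Sfpq peaks, 6 of 23 member peaks lay within 500 nt of Sfpq (26.1%), against 30.5% of all peaks with a gene symbol.

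On Cdk6, Ccnd2 and Rb1, the Ago2-let-7a peaks lay in introns or exons. Cdk6, a partner of D-type cyclins, had 3 intronic peaks with scores of 15, 9 and 14, all dismissed, the first as very far and the others as far. The nearest Sfpq peak in the deposited list lay 15496 nt or more from them, so the class did not always follow the listed Sfpq peaks. Ccnd2 (cyclin D2) had a single intronic peak with a score of 8, dismissed as far. The exonic peak of Rb1, the pocket protein that restrains E2f, had a score of 10 and was dismissed as very far. All 5 of these peaks were dismissed, as were 94.2% of all intronic peaks of the list and 85.3% of its peaks with a gene symbol outside 3′UTRs. Over members the shares were 6 of 8 (75%, 40.9 to 92.9) and 13 of 16 (81.2%, 57.0 to 93.4). The first interval lies below the 94.2%, and the 2 kept intronic peaks are those of the Cdk8 interval described below.

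Ccng2 and Cdkn1b had most of the Ago2-let-7a peaks on members, 9 of 23. Ccng2 had 4 Ago2-let-7a peaks. Its 3 exonic peaks had scores of 14 (kept), 32 and 19 (both dismissed as far), and its 3′UTR peak (chr5:93275310-93275419, score 25) was dismissed as close, with the Sfpq peak of the gene 446 nt away. The score of 32 was the highest of any member in that list, in which scores reach 267. Cdkn1b had 5: a 5′UTR peak (score 8, dismissed as close), an exonic one (10, far), an intronic one (9, far) and 2 in the 3′UTR with a score of 9 each, both kept. Both kept Cdkn1b peaks overlap an Sfpq peak with a score of 33, the highest of the Sfpq peaks on an inhibitor. Ccng2 and Cdkn1b thus differed in the fate of their 3′UTR let-7a peaks, 1 of 1 dismissed and 0 of 2 dismissed.

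Of the remaining members, Wee1 had a single peak in its 3′UTR (score 15), which was kept. Cdk19, a kinase of the Mediator complex that couples transcription factors to RNA polymerase II, had a kept 3′UTR peak (score 16), a 3′UTR peak dismissed as very far (13) and an intronic one dismissed as very far (10). Cdc37l1 lost its 3′UTR peak (score 9, close). The exonic peak of Cdc42ep5, an effector of Cdc42, had a score of 9 and was dismissed as far.

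**Figure D3:**
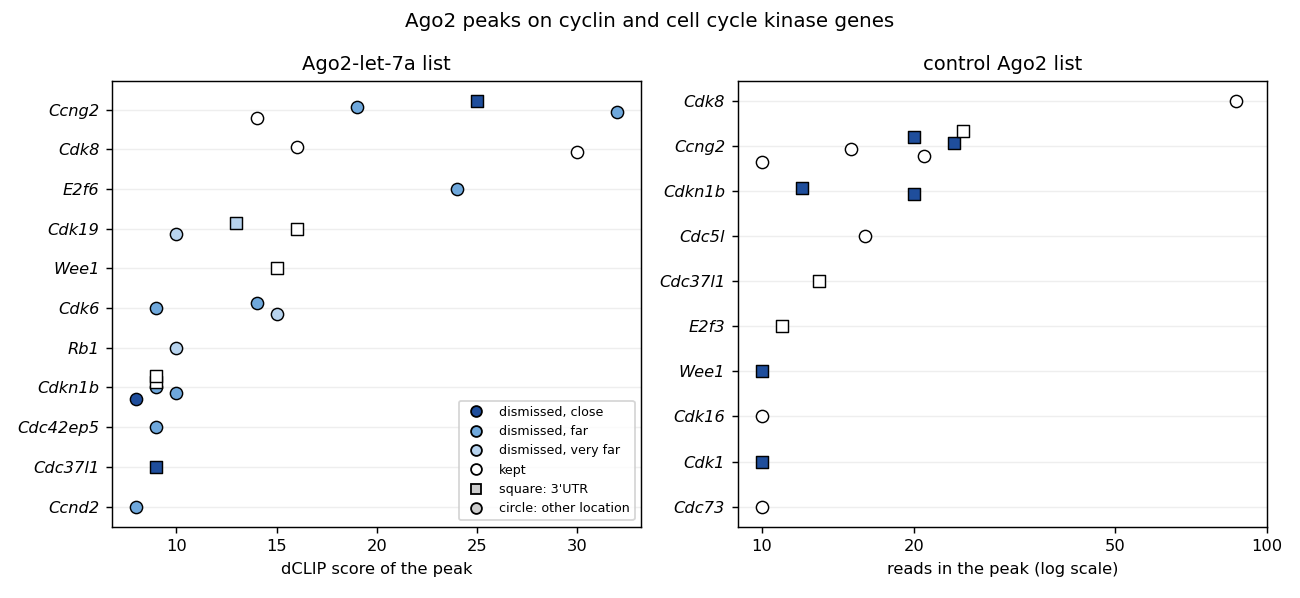
Every Ago2 peak on the member genes, by gene (y axis), with its dCLIP score in the Ago2-let-7a list (left) and its reads in the control Ago2 list (right, log axis). Blue shades mark dismissed peaks by distance class, white marks kept peaks, and squares mark 3′UTRs. All 6 dismissed control Ago2 peaks are dark blue squares, that is close and in 3′UTRs, on Ccng2, Cdkn1b, Wee1 and Cdk1.

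For endogenous miRNAs, 6 of the 16 control Ago2 peaks on members were dismissed (37.5%, 18.5 to 61.4), against 30.4% of the whole list and 33.2% of its peaks with a gene symbol. All 6 were in the close class. That class thus held 6 of the 16 member peaks (37.5%, 18.5 to 61.4), against 11.9% of the whole list and 15.1% of its peaks with a gene symbol. All 6 were in 3′UTRs, where 53.0% of all peaks of the list were dismissed and 6 of 9 member peaks were. Of the 7 member peaks outside 3′UTRs 0 were dismissed (0 to 35.4%), against 26.3% of such peaks with a gene symbol, which this interval holds. Both control Ago2 peaks of Cdkn1b were dismissed (20 and 12 reads), as was the only 3′UTR peak of Cdk1 (10 reads), the kinase of mitotic entry, and that of Wee1 (10 reads). Ccng2 lost 2 of its 3 3′UTR peaks (24 and 20 reads) and kept the third (25 reads), besides an antisense intronic peak of 10 reads and exonic peaks of 21 and 15 reads. The minimum for this list was 10 reads, at which the peaks of Cdk1 and Wee1 stand. The 3′UTR peaks of E2f3 (11 reads), a G1 to S activator, and Cdc37l1 (13 reads) were kept, but are listed without a strand. The list has 4 such member peaks, all of them kept.

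**Figure D4:**
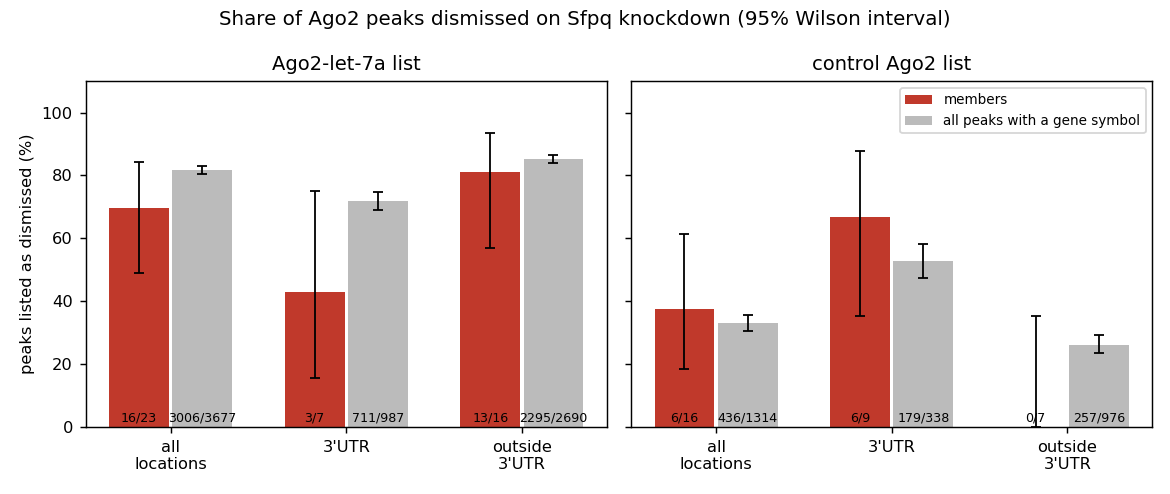
Share of Ago2 peaks listed as dismissed (y axis, percent, from 0) on members and over all peaks with a gene symbol, at all locations, in 3′UTRs and outside them, for both Ago2 lists. Error bars are 95% Wilson intervals and counts stand in the bars. In 3′UTRs the members lie at 3 of 7 in the Ago2-let-7a list and at 6 of 9 in the control Ago2 list, with intervals that hold the share over all 3′UTR peaks.

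The same 3′UTR could hold peaks of different fate. In Wee1 the kept Ago2-let-7a peak (chr7:110142625-110142709) lies inside the dismissed control Ago2 peak (chr7:110142568-110142745). By the methods, a let-7a peak counted as dismissed only if siSfpq without the mimic left it unchanged, and whether this set the call of the Wee1 peak was not tested. In Ccng2 the dismissed Ago2-let-7a peak overlaps the dismissed control peak at chr5:93275066-93275385. The control Ago2 and Ago2-let-7a lists may share control libraries, which the sources used here do not settle, so no share of overlap between them is given. Ago2-let-7a peaks on members touched a siSfpq Ago2 peak in 13 of 23 cases (56.5%, 36.8 to 74.4), against 24.4% of all peaks with a gene symbol, and 8 of the 13 were on Ccng2 and Cdkn1b.

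The let-7 seed was looked for as the 6 nt match to bases 2 to 7, TACCTC, on the transcribed strand. Of the Ago2-let-7a peaks in 3′UTRs, 0 of the 7 on members held it (0%, 0 to 35.4), against 3.04% of all 3′UTR peaks of that list and 2.03% of the same windows shifted by 200 nt. The recruited let-7a list gave 0 of 36 (0 to 9.64), against 1.99%. Over all locations a single member peak of the Ago2-let-7a list held it, 1 of 23 against 2.19% of the whole list. This peak, on E2f6, a repressor of the E2f family, was named after its values were seen. It has a score of 24, lies at chr12:16826385-16826469 and was dismissed as far, with Sfpq listed 1756 nt away. The list annotates it to a non-coding transcript of the gene, but by position it lies at 1001 to 1085 nt of the E2f6 3′UTR of 1368 nt (chr12:16825385-16826752, plus strand). It spans 2 of the 3 let-7 matches of that 3′UTR. The first is an 8 nt match (bases 2 to 8 and an A opposite base 1) and the second a 6 nt one, shown here with the 6 nt match in capitals and 12 bases on either side.
E2f6, chr12:16826407-16826436: cctagcgctctcTACCTCagtgggtaagtc
E2f6, chr12:16826428-16826457: gggtaagtcactTACCTCtctgtgcctcaa
Of the 61 words of 25 nt in this peak, 32 occur at 1 other place of the genome (52.5%), so part of its reads may not be unique to E2f6.

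Let-7 matches in 3′UTRs seldom lay in a listed peak, in members as in all genes. Ccnd1, Cdk6 and Cdc25a have 1 let-7 match each in their longest annotated 3′UTR and Ccnd2 has 2. None of these matches lay in a peak of any of the 4 Ago2 lists, and 1 of the Ccnd2 matches lay in an Sfpq peak that spans 1951 to 2105 nt of the 3′UTR. Over the 70 members with an annotated 3′UTR, 21 had a match (30%, against 26.7% of 9332 genes with a peak and a 3′UTR). Of their 26 matches, 2 lay in Ago2-let-7a peaks, both on E2f6, and 0 in recruited let-7a peaks. Over all genes 34 of 3372 matches lay in Ago2-let-7a peaks and 74 in recruited let-7a peaks. A gene without a listed peak may be bound below the threshold, and how strongly each gene was expressed was not used here.

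Seeds of the other families were searched in the same way, and the shares given here pool them with let-7. Any of the miR-290 and miR-302, miR-17, miR-15/16, miR-34 and let-7 words occurred in 2 of 7 member 3′UTR peaks of the control Ago2 list that have a strand (28.6%, 8.22 to 64.1), against 40.3% of all such peaks and 25.9% of shifted windows. In the siSfpq Ago2 list it was 17 of 46 (37.0%, 24.5 to 51.4), against 36.7%, and in the recruited let-7a list 6 of 36 (16.7%), against 16.9%. In the siSfpq Ago2 and recruited let-7a lists the member shares stood within 1 percentage point of those over all peaks. A selection of the matches that lie in peaks named here is shown with the match in capitals. Among those left out are the miR-290 and miR-302 word overlapping the Ccng2 miR-17 word and the miR-17 word overlapping the first Cdkn1a match. A miR-15/16 word in the control Ago2 peak of Cdc37l1 was left out too. Whether Ago2 was bound through any of these matches was not tested.
Wee1, miR-290 and miR-302, chr7:110142594-110142623: atccaactgggaGCACTTtaggcatcgtgt
Wee1, miR-17, chr7:110142595-110142624: tccaactgggagCACTTTaggcatcgtgtg
Wee1, miR-15/16, chr7:110142657-110142686: ccttgtgaatttGCTGCTattttagtttcc
Ccng2, miR-17, chr5:93275207-93275236: ttaaaacgttggCACTTTattttttgttga
Cdk19, miR-290 and miR-302, chr10:40480036-40480065: ctgatctacccaGCACTTctgcatccttca
Cdkn1a, miR-290 and miR-302, chr17:29099817-29099846: cagacctgaataGCACTTtggaaaaatgag
Cdkn1a, miR-290 and miR-302, chr17:29100489-29100518: gtgggtgtcaaaGCACTTagtgggtctgac
Cdkn1b, miR-221 and miR-222, chr6:134924420-134924449: aaaagcattggaTGTAGCattgcgcaatta
Cdkn1b, miR-221 and miR-222, chr6:134924496-134924525: tatcttttactcTGTAGCacataaacgtta
The dismissed control Ago2 peak of Wee1 spans the miR-290 and miR-302 word, which the miR-17 word overlaps, and the miR-15/16 word. The kept Ago2-let-7a peak spans the miR-15/16 word only, and a recruited let-7a peak (chr7:110142585-110142614, score 39) spans the others. In Ccng2 the dismissed control peak of 24 reads spans the miR-17 word, an 8 nt match.

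In Cdkn1b both miR-221 and miR-222 words lie in the dismissed control Ago2 peak of 20 reads (chr6:134924287-134924541) and within the Sfpq peak at chr6:134924400-134924514 (score 13). The recruited let-7a list has a peak over both words too (chr6:134924405-134924514, score 19), and the siSfpq Ago2 list one of 154 reads. By its header the siSfpq Ago2 list may hold control cells as well, and 80.4% of all control Ago2 peaks touch a peak of it, so the 154 reads do not show what was left at this site with siSfpq. The word occurred in 3 of 7 member 3′UTR peaks of the control Ago2 list (42.9%, 15.8 to 75.0), on Ccng2, Cdk1 and Cdkn1b, against 5.94% of all such peaks. On Cdk1 the word begins in the coding sequence, and only its last base, at chr10:69338497, lies in the annotated 3′UTR. The word was in 2 of 7 member windows shifted by 200 nt, and this family was chosen after the data were seen because of Cdkn1b.

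Sfpq peaks were spread unevenly over the members. Ccnd2, a G1 driver, had 22 Sfpq peaks, 17 of them in its 3′UTR of 4627 nt, of which they covered 36.3%. The highest score among them was 28. Cdc27, a subunit of the anaphase-promoting complex, had 8 peaks (7 in the 3′UTR, 17.7% of it covered) and E2f3 had 8 (4 in the 3′UTR, 6.31%). Ccnt2, which pairs with Cdk9 in transcription elongation, had 13, of which 8 were intronic and 2 in the 3′UTR, and Ccnt1 had 6, of which 4 are labelled as the transcript end and 0 as 3′UTR. The name-only Cdc42 had 13 (9 intronic, 3 in the 3′UTR) and Cdc42se2, an effector of Cdc42, 10 (9 in the 3′UTR). Cdk19, with a 3′UTR of 4015 nt, and Cdkn1a, with one of 1329 nt, had 0 Sfpq peaks anywhere, and of the 10217 nt of Cdk6 3.92% was covered.

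A location label could miss the 3′UTR. The lists annotate 4 of the 6 Sfpq peaks of Cdk6 to the transcript end, but by position all 6 lie within its 3′UTR. The highest-scoring Sfpq peak of any member, on Cdk5rap1 (score 51), lies in an intron on the strand opposite to the gene, and all of its 76 words of 25 nt occur elsewhere in the genome, at up to 1746 places. In the 67 member 3′UTR Sfpq peaks, CTGT or CTGA, the DNA form of words tied to Sfpq, stood at 1.61 per 100 nt, against 1.58 in all 3′UTR Sfpq peaks. In windows shifted by 200 nt the densities were 1.22 for members and 1.25 for all. For TGTA after any base they were 0.845 in member peaks and 0.868 in all peaks, with 0.609 and 0.645 after the shift. Members and all peaks had nearly the same word densities.

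**Figure D5:**
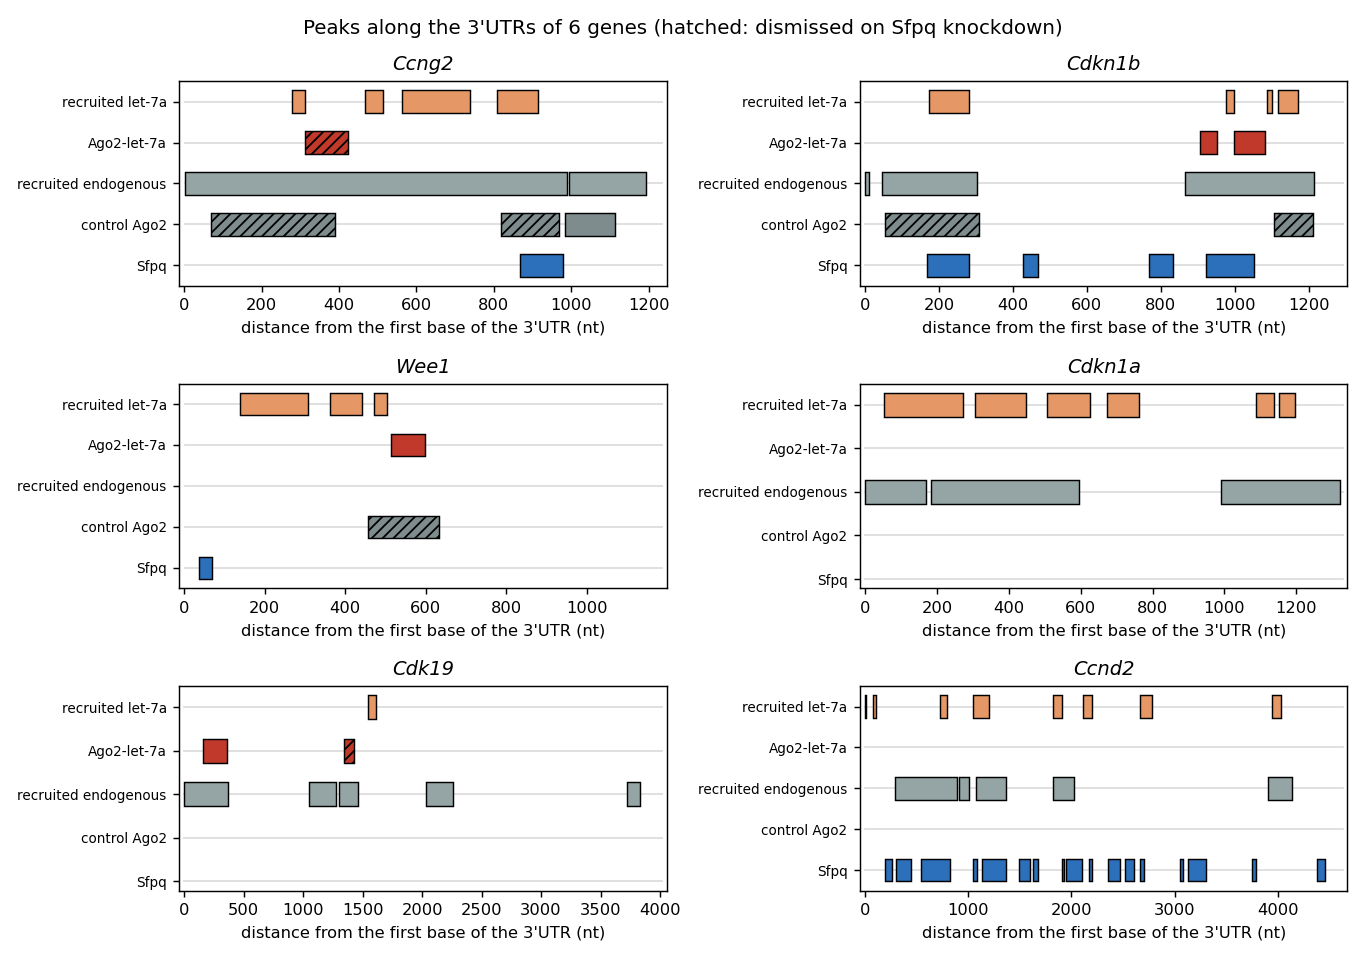
Peaks of the 5 lists along the 3′UTRs of Ccng2, Cdkn1b, Wee1, Cdkn1a, Cdk19 and Ccnd2, as distance in nt from the first base of the 3′UTR (x axis), with 1 list per line and dismissed peaks hatched. Cdkn1a has peaks in the recruited lists alone, Ccnd2 17 Sfpq peaks and 0 peaks of the Ago2-let-7a and control Ago2 lists, and in Ccng2 a recruited let-7a peak ends where the dismissed Ago2-let-7a peak begins.

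With siSfpq and let-7a together, the members with most peaks were Ccnd2, Ccng2, Cdkn1a, Cdkn1b and Cdk16. Ccnd2 had 10 recruited let-7a peaks with scores of 9 to 23, of which 7 lay in the 3′UTR. Ccng2 had 8 with scores up to 41 (4 in the 3′UTR), Cdkn1a 8 up to 32 (6 in the 3′UTR) and Cdkn1b 7 up to 105 (4 in the 3′UTR). Cdk16, a kinase of the PCTAIRE group, had 5 up to 45, of which 1 lay in the 3′UTR. Of the 5 member genes whose 3′UTR carried an Ago2-let-7a peak, all 5 carried a recruited let-7a peak there too (100%, 56.6 to 100), against 55.7% of all such genes. The genes are Ccng2, Cdkn1b, Wee1, Cdk19 and Cdc37l1. With a recruited score of at least 15 required, 3 of the 5 were left (60%). Both lists rest on the same let-7a libraries, so these counts are a description of where the lists lie.

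On Ccng2, Cdkn1b and Wee1, shown as examples, recruited let-7a peaks lay beside the Ago2-let-7a peaks. On Ccng2 a recruited peak at 278 to 312 nt of the 3′UTR (score 31) ends at the base before the dismissed Ago2-let-7a peak at 313 to 422 nt. Further recruited peaks followed at 468 to 512, 563 to 737 and 808 to 912 nt. On Cdkn1b a recruited peak at 977 to 996 nt (score 53) ends at the base before the kept Ago2-let-7a peak at 997 to 1081 nt, and the highest, at 1117 to 1171 nt (score 105), lies within a dismissed control Ago2 peak at 1106 to 1212 nt. On Wee1 recruited peaks lay at 138 to 307, 363 to 442 and 473 to 502 nt, upstream of the kept peak at 513 to 597 nt.

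Cdkn1a was 1 of 5 members with peaks in the recruited let-7a and siSfpq Ago2 lists and in no other, beside Ccnb1, Ccnd3, E2f4 and Cdkn2aipnl. These are 7.04% of members (3.05 to 15.4), against 4.15% of all genes. Much of the sequence of the Ccnb1 peaks also occurs elsewhere in the genome, as given below. Cdkn1a had 8 recruited let-7a peaks, which covered 50.0% of its 3′UTR, and 5 siSfpq Ago2 peaks with up to 186 reads, and 0 peaks in the Ago2-let-7a, control Ago2 and Sfpq lists. The nearest listed Sfpq peak lay 36601 nt or more from all 13. Both miR-290 and miR-302 matches shown above lie in peaks of both recruited lists, the first with 7 nt and the second with 8 nt of match. A 7 nt miR-17 match overlaps the first in the same peaks, so that site is not particular to 1 family. A 7 nt miR-15/16 match lies in another recruited let-7a peak of the gene. Of its siSfpq Ago2 peaks, the first, of 14 reads at the promoter, is on the strand opposite to the gene. Cdkn2a, which encodes p16 and p19Arf, had a single siSfpq Ago2 peak of 12 reads, and Cdkn2c (p18) a single Sfpq peak with a score of 8.

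The siSfpq Ago2 list had peaks on 12 of the 14 cyclins (85.7%), close to its 82.7% of all genes. Cdk19 had the most peaks of any member (9, of which 5 in the 3′UTR, up to 107 reads), then Ccng2 (8, up to 698 reads) and Ccnd2, Cdkn1b and Ccnt1 (6 each, up to 93, 155 and 61 reads). Scores and reads are not on 1 scale and were not compared between lists. The Ccng2 peak of 698 reads spans nearly its whole 3′UTR (from 1 to 988 nt) and takes in both its dismissed control Ago2 peaks. The control Ago2 and siSfpq Ago2 lists may share control cells, so their overlap only describes where they lie. Of the 16 control Ago2 peaks on members, 14 touched a siSfpq Ago2 peak (87.5%, 64.0 to 96.5). The interval holds the 80.4% of all peaks with a gene symbol. Wee1 was an exception, with 0 siSfpq Ago2 peaks. Among mitotic genes, Ccnb1 had 3 recruited let-7a peaks and 1 siSfpq Ago2 peak, Plk1 1 Sfpq and 1 siSfpq Ago2 peak, and Aurka likewise 1 and 1.

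The highest read count of any member was on Cdk8, which like Cdk19 is a Mediator kinase, and it lay in an intron. A single intronic interval gave the highest member peak of 3 lists: 26437 reads in the siSfpq Ago2 list (chr5:146260978-146261360), a recruited let-7a score of 123 and 87 reads in the control Ago2 list, besides kept Ago2-let-7a peaks with scores of 30 and 16. Of the 359 words of 25 nt in the siSfpq peak, 87 occur elsewhere in the genome (24.2%), at up to 5 places. No other RefSeq gene overlaps it, and the control Ago2 peak there has no strand. Whether reads of another RNA map there was not tested. Without this interval the dismissed shares of members were 76.2% in the Ago2-let-7a list and 40% in the control Ago2 list. Intronic peaks of Cdc5l (28 nt, antisense, 795 reads in the siSfpq Ago2 list) and Cdc73 (26 nt, 214 reads), which match by name only and act in splicing and transcription, stood apart likewise.

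Other cell cycle genes outside the naming rule, a list of 69 such as the Mcm helicase subunits, cohesins and Myc, had a peak in 55 cases. They had 46 recruited let-7a peaks of 27 genes, 12 Ago2-let-7a peaks of 10, 102 siSfpq Ago2 peaks of 45, 4 control Ago2 peaks of 3 and 177 Sfpq peaks of 35. Of their Ago2-let-7a peaks 10 of 12 were dismissed (83.3%, 55.2 to 95.3) and of their control Ago2 peaks 3 of 4. In the Sfpq list 26% of their peaks lay in 3′UTRs (20.1 to 32.9), against the 43.8% of the members. That member share was 30.3% with each gene counted once per location, which was not computed for the other cell cycle genes. In the siSfpq Ago2 list the share was 29.4% (21.4 to 38.9), against 35.4% of members and 18.9% of all peaks with a gene symbol. For recruited let-7a it was 45.7% against 43.4% of members. In the Ago2-let-7a list 3 of 12 lay in 3′UTRs and in the control Ago2 list 2 of 4.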

How the data were processed

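HITS-CLIP of Ago2 and of Sfpq was done in P19 cells in 15 samples. The authors trimmed reads with cutadapt and mapped them to mm10 with STAR and Bowtie2, per the submitters' processing notes, with versions not given in the sources used here. They merged replicates before calling peaks. The deposited score is that of dCLIP, above a threshold of 7, and covers the Ago2-let-7a, recruited let-7a and Sfpq lists. The deposited counts are the reads in each peak as pyicoclip gave them (10 reads or more), and cover the control Ago2 and siSfpq Ago2 lists. The lists hold no depth per sample. The study gives mapped read totals in a supplement, which were not used here. The header of the siSfpq Ago2 list names both control and siSfpq cells, whereas the methods describe siSfpq cells alone. Dismissed peaks were taken from 6 further lists of the authors (overlap by a Jaccard index of 0.1), and matched to the full lists by position.

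Members were found by symbol in all lists, and locations were used as deposited. Each share is set beside the share over all peaks with a gene symbol. Seed words, 3′UTR positions, the chromosome copies of 25 nt words and the sequences came from RefSeq GRCm38.p6, the assembly of mm10. Members named were those with a 3′UTR peak in the Ago2-let-7a or control Ago2 list, the 5 with the most peaks in each other list and the one with the highest value of each list. Others (among them Cdk6, Rb1, E2f6, Ccnd1, Cdc25a, Cdc42ep5, Cdc5l, Cdc73, Ccnb1, Ccnd3, E2f4, Cdkn2aipnl, Plk1, Aurka, Cdkn2a and Cdkn2c) were named after their values were seen. Members and gene lists were chosen with earlier results of these data known. Counting steps were tested on simulated data. Python 3.11.15, pandas 2.3.3, SciPy 1.17.1, pysam 0.24.0 and matplotlib 3.10.9 were used.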

Additional observations from a re-analysis of the deposited data

How the results depend on the processing

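Of 77 alternatives over 22 results, 72 kept the value as reported and 5 moved it. A share was kept if it stayed within the interval of the share as reported. Counts of member genes and peaks have no interval and were kept if they stayed within a fixed ratio of the count as reported. Some alternatives crossed the share over all peaks with a gene symbol. The dismissed share of member control Ago2 peaks was 30% with each gene counted once, by its highest peak. The 33.2% over all peaks counts every peak and was not computed by gene, so these are unlike measures. The dismissed share of member Ago2-let-7a peaks (69.6%) was 42.9% for 3′UTR peaks only, against 72.0% of all such peaks. For the close class only it was 13.0%, against 27.7% of all peaks with a gene symbol. The dismissed share of member control Ago2 peaks (37.5%) was 66.7% for 3′UTR peaks only, against 53.0% of all such peaks. With each gene counted once per location, the 3′UTR share of member peaks was 30.3% in the Sfpq list (43.8% by peaks) and 32.6% in the recruited let-7a list (43.4% by peaks), against 26% and 36.2% of all peaks with a gene symbol counted in the same way. Leaving out the Cdk8 intron, unstranded or antisense peaks, setting 3′UTRs by position, and adding the miR-221 and miR-222 seed were alternatives chosen after seeing the data. No paired analysis was possible because replicates were merged before the peaks were called, and for the same reason no replicate could be left out. Read totals per library were not used here, and a gene without a listed peak cannot be called unbound.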
